A study of Homo sapiens with 11 samples.

Results

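Acetylation of lysine 27 on histone H3 (H3K27ac) was compared between a MYRF knockout clone and a control clone of CFPAC1, a cell line from human pancreatic ductal adenocarcinoma. The comparison used 4 ChIP-seq libraries, 2 of each clone, out of 11 samples in the series. Per the labels, each clone was isolated by dilution from cells infected with the lentiCRISPRv2 vector. In the knockout clone this vector carried Cas9 and a guide RNA against MYRF, whereas the control is labelled wild type for MYRF. Each genotype is 1 clone, so the loss of MYRF and a difference between clones cannot be told apart. Whether the replicates come from separate cultures is not stated in the labels, and p-values measure only the spread between these libraries, which may be technical. All 19974 protein-coding genes of chromosomes 1 to 22 and X in the RefSeq table of GRCh38.p14 were measured, and 11655 of them, with 10991 windows of 100 kb and 23 chromosomes, entered the tests.

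H3K27ac is deposited by the acetyltransferases p300 and CBP on nucleosomes beside active promoters and enhancers, and it is widely used to find regulatory DNA in use. MYRF is a transcription factor synthesised as a trimeric protein of the endoplasmic reticulum (ER) membrane, which cuts itself so that its amino-terminal part can enter the nucleus. It is required for myelin gene expression in oligodendrocytes, and the title of the study links it to ER homeostasis in this carcinoma.

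The deposited files were peak lists, without read counts, so the depth of each library is unknown. Control replicates 1 and 2 had 116466 and 109352 peaks, and knockout replicates 1 and 2 had 107586 and 110498. Peaks covered 100.5, 95.17, 87.85 and 92.92 Mb in the same order, so both knockout lists covered less DNA than both control lists. For each gene span with 10 kb on either side, each window and each chromosome, the bp under peaks were therefore expressed as a share of the list's covered bp, in ppm (bp per 1000000 bp covered). A gene or window was called separated where both knockout libraries lay above, or both below, both control libraries. The labelled cell type was checked against marker genes. Of 15 ductal markers, 7 had a start site in the promoter table. Of these 7, 6 (KRT8, MUC1, SPP1, SLC4A4, CLDN4 and CLDN7) had a peak within 1 kb of it in all 4 libraries. The other, CFTR, had a peak there in both knockout libraries and in neither control library. In contrast to the ductal markers, 7 of 11 acinar, 9 of 11 endocrine and 4 of 6 immune markers with a start site had such a peak in none. The summed cover at those start sites was 9.6 to 11.5 kb per library for ductal markers and 0.74 to 2.04 kb for acinar. It was 2.68 to 3.35 kb for endocrine and 0.468 to 1.84 kb for immune markers. The starts of PTPRC, INS, GCG and PRSS1 were at 0 throughout. However, NR5A2 (acinar), PAX6 and ISL1 (endocrine) and CD14 (immune) had a start peak in all 4 libraries. Of 13 mesenchymal genes with a start site in the promoter table, 9 had a peak in all 4 libraries and 2 in none. Their summed cover was 13.6 to 15.3 kb per library.

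The knockout and control libraries did not differ more than the libraries did in every grouping across the clones. Both knockout libraries lay above both control libraries in 2561 genes, which is 22% of those tested, and below in 1292, which is 11.1%. Pairing replicates 2 against replicates 1 separated 24.1% of genes, and setting control replicate 2 with knockout replicate 1 against control replicate 1 with knockout replicate 2 separated 42.9%, where the clones separated 33.1%. An exact permutation of the libraries over these 3 pairings gave p = 0.667 for the number of separated genes, since 2 of the 3 had at least as many, and 4 libraries cannot give a p below 1 in 3. Only the second of the mixed pairings separated more genes than the clones did. The labels do not say whether control replicate 1 and knockout replicate 2, or the other two libraries, share a batch, and the part of a batch in that pairing was not tested. limma called 0 genes (0%) at an adjusted p under 0.05. The lowest limma adjusted p was 0.65, and 524 genes had an unadjusted p under 0.05. Replicates 2 against 1 gave 234 such genes, and the mixed pairing of control 2 with knockout 1 gave 1041. Every gene and window named here is therefore a description of these 4 libraries.

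Windows of 100 kb gave the same picture. Both knockout libraries were above both control libraries in 2139 windows (19.5%) and below in 1698 (15.4%). The clones separated 34.9% of windows, against 24.4% and 40.7% in the mixed pairings (exact permutation p = 0.667). limma called 0 windows (0%), with a lowest adjusted p of 0.48 and 587 windows at an unadjusted p under 0.05. The mixed pairings had 204 and 929 such windows. Windows whose nearest knockout and control libraries stood at least 1.5-fold apart, after adding 10 ppm to each value, numbered 27 higher (0.246%) and 61 lower (0.555%), or 88 in all. The mixed pairings had 32 and 129 such windows (exact permutation p = 0.667). The corresponding genes numbered 19 higher (0.163%) and 23 lower (0.197%), 42 in all, against 19 and 67 (exact permutation p = 0.667).

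**Figure D1:**
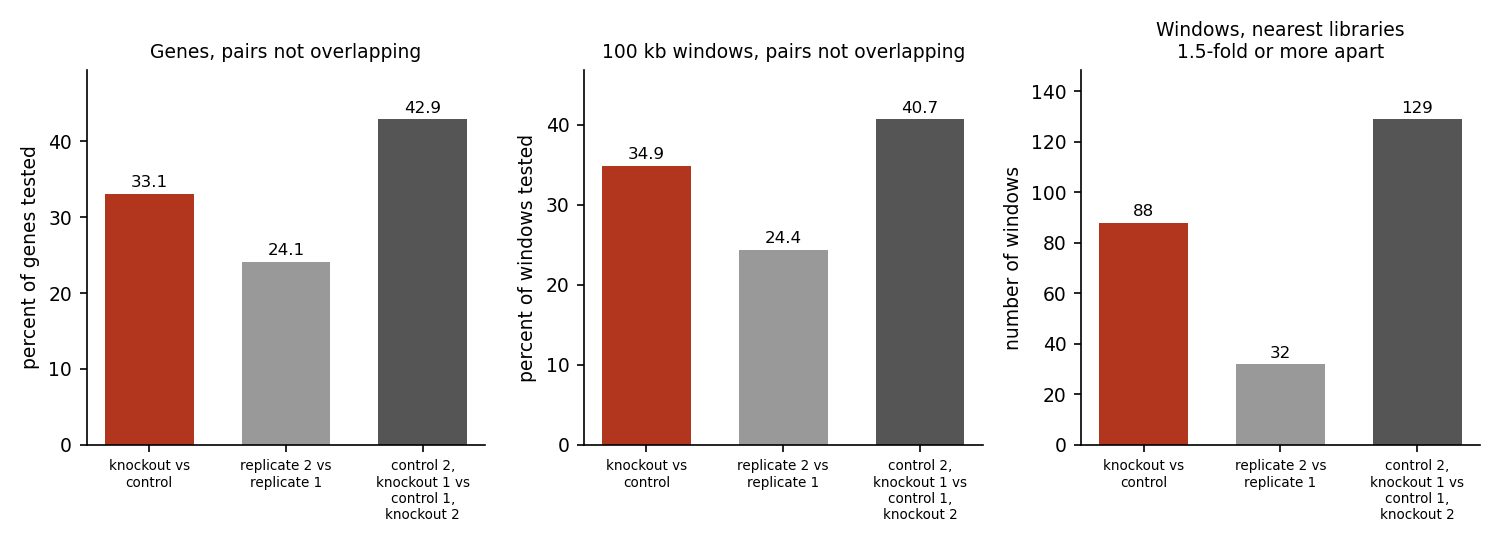
Bars give, for each of the 3 ways of setting 2 libraries against the other two, the percent of genes (left) and of 100 kb windows (middle) whose pairs of libraries did not overlap, and the number of windows whose nearest libraries stood at least 1.5-fold apart (right). The clone pairing lies between the mixed pairings in each panel, at 33.1%, 34.9% and 88 windows.

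The balance of higher and lower genes depended on the scaling. Among separated genes 66.5% were higher in the knockout clone when cover was taken as a share of each list, 51.1% when each library was centred on its median gene, and 27.6% when the bp were left unscaled. For windows the shares were 55.7%, 51% and 25%. The median gene differed by 0.044 on the log2 scale as a share of the list and by -0.049 unscaled, so the number of higher genes is relative to the list totals.

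MYRF itself, the targeted gene, lay on chromosome 11 at 61752636 to 61788518. Peaks over it took 99.4 and 165 ppm in control replicates 1 and 2 and 121 and 145 ppm in knockout replicates 1 and 2. The knockout values lay inside the control range. Its strongest peak had a fold enrichment, the authors' ratio over background at the summit, of 34.6, 35.4, 40.4 and 35.1 in the same order. Acetylation over the locus does not check the edit.

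The window that stood furthest apart in either direction held the start of GLI2, a transcription factor of the Hedgehog pathway. In chr2:120700001-120800000 cover was 7.70 and 12.8 ppm in the control replicates and 98.5 and 107 ppm in the knockout replicates. Both control values were under 20 ppm, the mean needed for testing, so the window entered the tests through its knockout values. The control libraries had 3 and 5 peaks there and the knockout libraries 17 and 20, with a best fold enrichment of 4.58, 4.73, 12.2 and 11.3. Its log2 difference was 2.49 ± 0.19 (SE, n = 2 libraries a clone), with a limma adjusted p of 0.48. The largest distance between nearest libraries over all windows was 2.25 on the log2 scale for the clones, at this window, and 1.65 and 2.44 in the mixed pairings. Within the first 5 kb of the gene, control libraries had 297 and 722 bp under peaks and knockout libraries 3347 and 4186 bp. From 45 to 50 kb past the start, control libraries had 222 and 0 bp and knockout libraries 867 and 823 bp. From 55 to 60 kb they had 0 and 215 bp against 727 and 1054 bp. At 125 to 130 kb the values were 1403 and 1904 bp against 1552 and 2269 bp. From 175 to 180 kb all 4 were covered over the whole 5000 bp, the most a bin can hold. MYRF peaks found in both MYRF libraries of unedited CFPAC1 numbered 1 in this window.

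Cover within 1 kb of an annotated start was compared as well, a measure chosen after the values were seen. Of 15812 genes in the promoter table, 10076 had a peak there in all 4 libraries and 4885 in none. A peak in both knockout and neither control library was found at 40 genes (0.253%), and the reverse at 33 (0.209%). The mixed pairings gave 22 and 41 genes for replicate 2 against 1, and 56 and 31 for the other, so these counts too lie among those of the mixed pairings. Among the genes named for their distance, 5 starts were covered in both libraries of 1 clone and by 0 to 263 bp in the other. Those promoters are shown for that reason. The 250 bases upstream of each start follow from RefSeq (GRCh38.p14), 5′ to 3′ on the gene's strand, with capitals marking any match to the AP-1 motif TGANTCA or the MYRF motif CTGGNAC on either strand.
GLI2, chr2:120735618-120735867, plus strand: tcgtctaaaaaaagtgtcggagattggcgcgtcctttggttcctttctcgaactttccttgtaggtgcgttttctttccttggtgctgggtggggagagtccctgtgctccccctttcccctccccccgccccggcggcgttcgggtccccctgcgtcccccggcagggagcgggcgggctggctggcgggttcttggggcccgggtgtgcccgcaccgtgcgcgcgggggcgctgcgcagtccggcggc
PKP1, chr1:201283256-201283505, plus strand: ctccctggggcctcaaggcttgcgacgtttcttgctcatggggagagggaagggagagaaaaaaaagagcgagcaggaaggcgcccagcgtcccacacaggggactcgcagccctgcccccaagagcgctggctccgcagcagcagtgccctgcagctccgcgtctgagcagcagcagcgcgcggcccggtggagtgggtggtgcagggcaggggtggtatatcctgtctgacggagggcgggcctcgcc
KCNN3, chr1:154859877-154860126, minus strand: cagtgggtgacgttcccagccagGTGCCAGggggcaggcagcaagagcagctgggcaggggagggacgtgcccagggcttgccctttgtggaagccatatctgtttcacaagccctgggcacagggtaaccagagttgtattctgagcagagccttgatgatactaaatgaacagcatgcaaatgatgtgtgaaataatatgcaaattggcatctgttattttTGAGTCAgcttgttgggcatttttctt
ADAMTS12, chr5:33891991-33892240, minus strand: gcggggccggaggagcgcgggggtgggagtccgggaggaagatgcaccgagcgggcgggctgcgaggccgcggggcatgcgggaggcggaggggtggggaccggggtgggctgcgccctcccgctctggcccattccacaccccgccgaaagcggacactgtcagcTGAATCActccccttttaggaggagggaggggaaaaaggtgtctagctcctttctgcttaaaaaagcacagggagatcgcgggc
ABCB1, chr7:87600885-87601134, minus strand: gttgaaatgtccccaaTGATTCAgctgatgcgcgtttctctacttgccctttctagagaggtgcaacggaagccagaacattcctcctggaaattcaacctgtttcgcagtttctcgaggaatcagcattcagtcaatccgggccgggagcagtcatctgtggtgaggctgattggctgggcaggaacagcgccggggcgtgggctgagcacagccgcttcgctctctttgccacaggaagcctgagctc

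At the GLI2 start, 0 and 227 bp were covered in the control replicates and 1320 and 1080 bp in the knockout replicates, and its upstream stretch held 26 CpG pairs and no match to either motif. PKP1 encodes plakophilin 1, a desmosomal plaque protein. Its start was bare in both control libraries and had 916 and 904 bp in the knockout libraries, again with no motif match. KCNN3 encodes a small-conductance calcium-activated potassium channel. The start shown was bare in both control libraries and had 602 and 630 bp in the knockout libraries. Its stretch was poor in CpG, with 2 pairs, 1 AP-1 match and 1 MYRF match. This start, at 154859876, lay inside the annotated gene, which extends upstream to 154870281. The control libraries had peaks elsewhere over KCNN3 or its flanks. Their best fold enrichment was 15 and 27.4, against 24.9 and 30 in the knockout libraries. The ADAMTS12 start had 1524 and 596 bp in the control libraries and none in the knockout libraries, with 1 AP-1 match and 21 CpG pairs. The start shown for ABCB1, the drug efflux pump P-glycoprotein, had 841 and 531 bp in the control libraries and 0 and 263 bp in the knockout libraries. Its stretch held 1 AP-1 match and 12 CpG pairs. This start, at 87600884, also lay inside the annotated gene, which extends upstream to 87713295. Over all 22012 promoters the AP-1 motif occurred in 5.36% and the MYRF motif in 15.5%, and the median number of CpG pairs was 16. A match in these letters does not show that a factor bound there.

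Among genes with less acetylation in both knockout libraries, ADAMTS12, a secreted metalloprotease of the extracellular matrix, stood furthest apart. Its nearest libraries were 1.32 apart on the log2 scale, the largest gene distance for the clones. The largest gene distances in the mixed pairings were greater, at 1.8 and 1.67. The ADAMTS12 share was 211 and 135 ppm in the control replicates and 30.2 and 48.0 ppm in the knockout replicates, a control mean 4.42 times the knockout mean (log2 difference -1.89 ± 0.27 SE, limma adjusted p = 0.81). Peaks over the gene numbered 35 and 21 in the control libraries and 6 and 13 in the knockout libraries. Control peaks stood at the start and in clusters up to 260 kb into the gene, and the knockout libraries had peaks near 40 and 80 kb and, in replicate 2 alone, 770 bp at 240 kb.

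**Figure D2:**
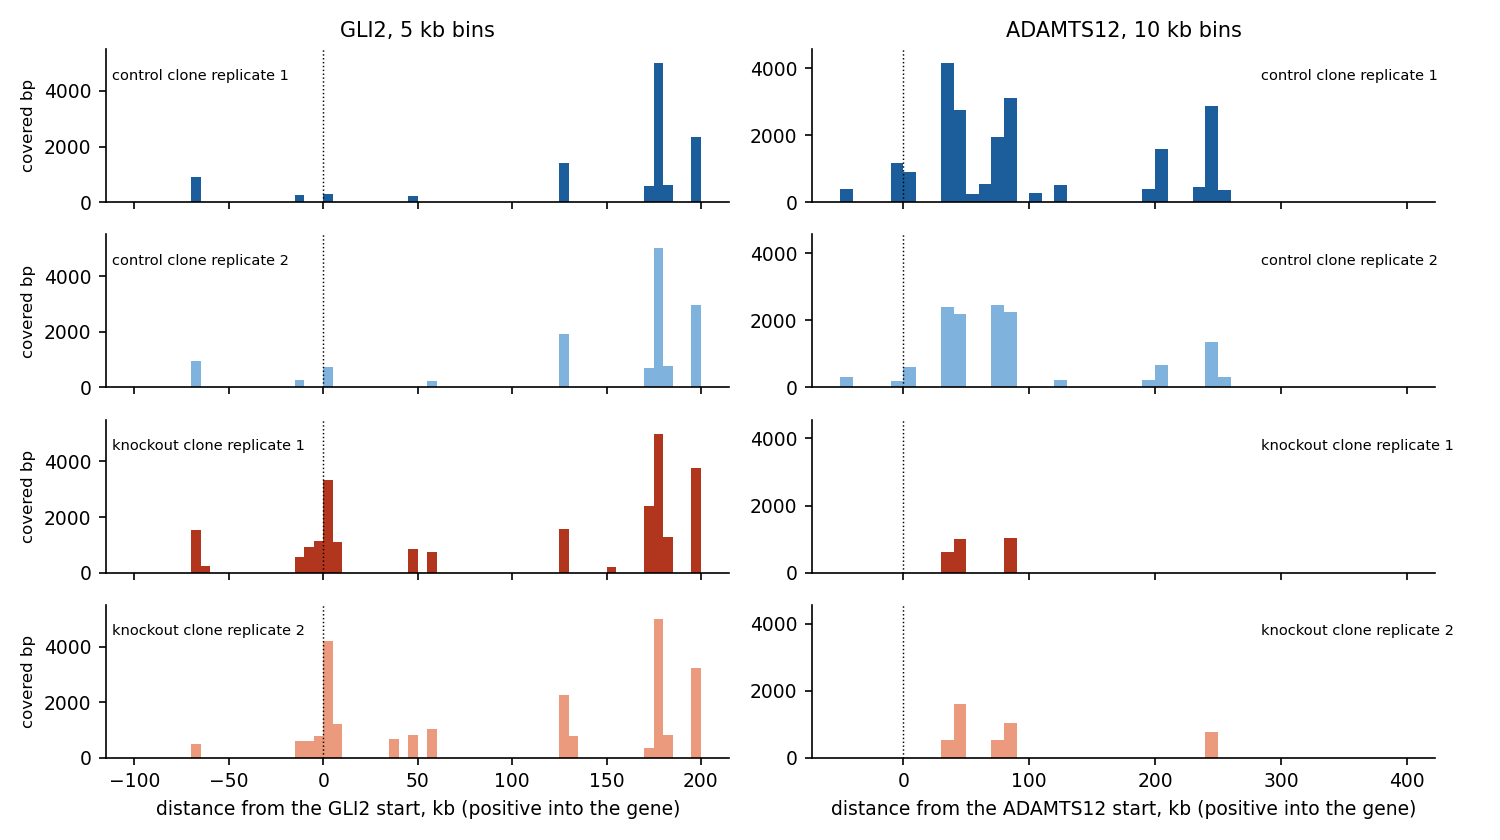
Bars give the bp under H3K27ac peaks in bins along GLI2 (5 kb bins) and ADAMTS12 (10 kb bins) against the distance from the gene's start in kb, with 1 row for each library and a dotted line at the start. Around the GLI2 start the knockout libraries had 3347 and 4186 bp in the first 5 kb against 297 and 722 bp, while the bin at 175 kb was full in all 4, and the ADAMTS12 start was bare in both knockout libraries.

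CFAP221, a protein associated with cilia and flagella, had 96.3 and 77.1 ppm in the control replicates and 27.1 and 22.8 ppm in the knockout replicates. Its start was covered alike in all 4 libraries, at 1136 to 1237 bp, so the difference lay away from the promoter. STK32B, a serine/threonine kinase gene, had 131 and 230 ppm against 27.9 and 55.6 ppm, and ABCB1 had 50.3 and 26.2 ppm against 6.88 and 9.64 ppm.

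The other lower genes included 3 adhesion and guidance genes. SLIT2, a secreted ligand of ROBO receptors, had 289 and 280 ppm in the control replicates and 131 and 146 ppm in the knockout replicates. TENM3, a teneurin, had 286 and 237 ppm against 84.6 and 137 ppm, and SDK1, an adhesion molecule of the immunoglobulin superfamily, had 70.2 and 58.1 ppm against 23.5 and 30.1 ppm. CLNK, KCNIP4, CIB2, LSM3 and TRAM1 completed the 12 lower genes, with control means 2.14 to 3.21 times the knockout means. TRAM1 belongs to the ER translocon and had 92.1 and 103 ppm in the control replicates and 49.8 and 34.5 ppm in the knockout replicates. The limma adjusted p over the 12 lower genes ran from 0.65 to 0.86. ABCB1 and CIB2 were under 20 ppm, the mean needed for testing, in both knockout libraries. They entered the tests through their control values.

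The 12 genes furthest apart on the higher side were led by the neighbours CD1B and CD1C, which encode lipid antigen-presenting molecules and share one stretch of peaks. Their joint span had 8.09 and 7.58 ppm in the control replicates and 31.0 and 42.5 ppm in the knockout replicates (log2 difference 1.38 ± 0.17 SE, limma adjusted p = 0.65). CEACAM5, the carcinoembryonic antigen of gastrointestinal tumours, had 21.0 and 19.1 ppm in the control replicates and 59.3 and 48.7 ppm in the knockout replicates, and the adhesion gene CEACAM6 beside it on chromosome 19 had 86.0 and 69.7 ppm against 135 and 141 ppm. CD86, a costimulatory ligand of antigen-presenting cells, had 19.8 and 18.6 ppm against 46.2 and 56.0 ppm. No library had a peak within 1 kb of the CD86 start, so the cover there lay elsewhere in the span.

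GLI2 as a whole gene had 127 and 155 ppm in the control replicates and 314 and 273 ppm in the knockout replicates. PKP1 had 10.4 and 2.81 ppm against 80.2 and 26.1 ppm, the widest ratio of means among the 12, at 8.03, but also a wide spread within the knockout clone. KCNN3 had 37.5 and 47.1 ppm against 102 and 90.2 ppm. The neutrophil chemokine gene CXCL3 had 37.4 and 41.8 ppm against 87.3 and 78.5 ppm, with 1615 to 1723 bp covered at its start in all 4 libraries. COA8, GUCY1A1, NOSTRIN, RAPGEF5 and ILKAP completed the 12, with knockout means 1.83 to 3.61 times the control means. The limma adjusted p over the 12 higher genes ran from 0.65 to 0.86. CD1B, CD86, PKP1, NOSTRIN, RAPGEF5 and ILKAP were under 20 ppm, the mean needed for testing, in both control libraries. They entered the tests through their knockout values.

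**Figure D3:**
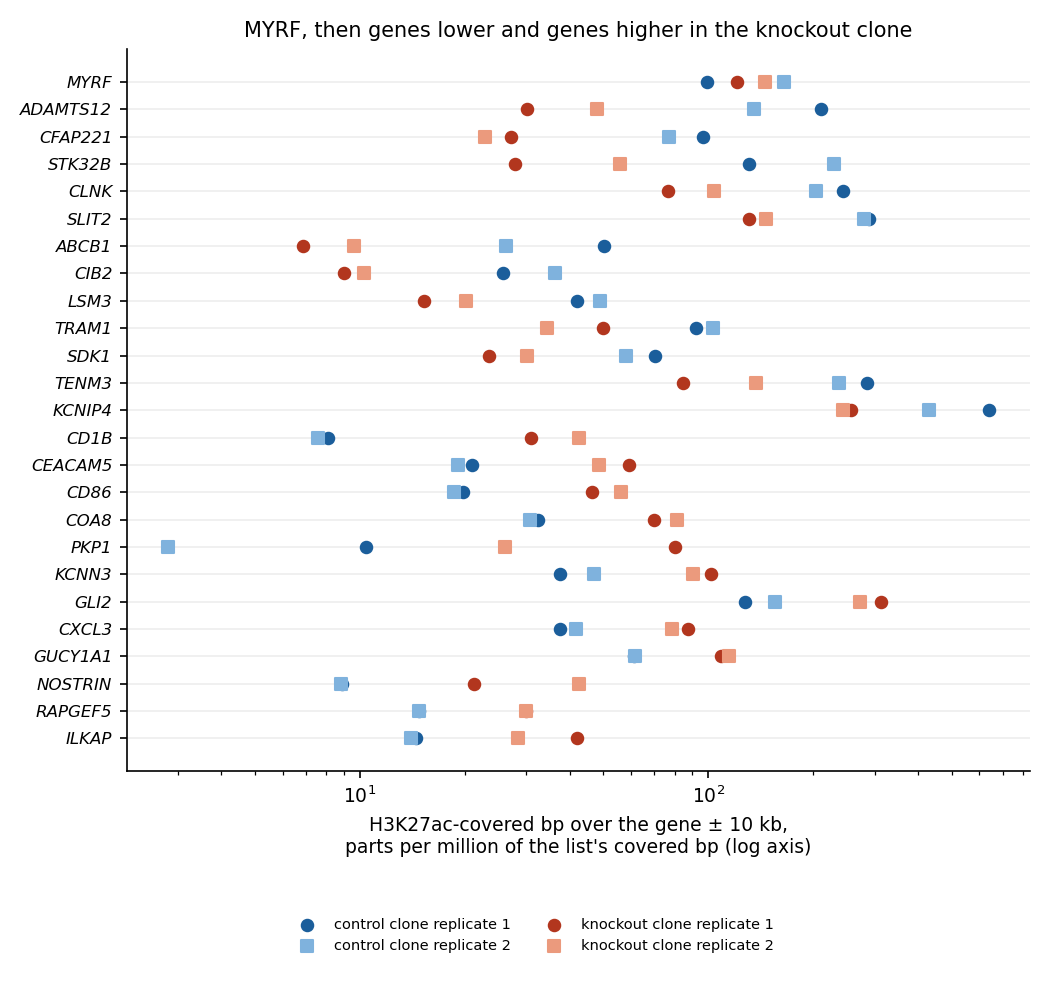
Points give the share of each list's covered bp, in ppm on a log axis, over MYRF and the 12 genes furthest apart in each direction, 1 point for each library. The control and knockout points interleave for MYRF and stand apart for the other 24 genes, which were chosen for that.

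Neighbouring windows differed together. Runs of at least 5 consecutive tested windows separated in one direction numbered 28, of which 15 were lower and 13 higher, against 5 and 67 in the mixed pairings (exact permutation p = 0.667). The longest run held 10 windows on chromosome 4 from 19900001 to 22200000, over SLIT2, PACRGL and KCNIP4, a potassium channel-interacting protein gene. It had 1155 and 874.1 ppm in the control replicates and 485.0 and 511.5 ppm in the knockout replicates. A second run of 6 lower windows followed from 22400001 to 23200000, with 1060 and 987.8 ppm against 791.4 and 512.3 ppm. Also on chromosome 4, 7 windows from 15700001 to 16500000, over BST1, CD38, FGFBP1, FGFBP2, PROM1 and TAPT1, had 996.7 and 1041 ppm in the control replicates and 675.0 and 640.8 ppm in the knockout replicates. PROM1 encodes the membrane protein prominin 1 (CD133), and CD38 and BST1 encode related enzymes of NAD metabolism. Of the 61 windows lower by at least 1.5-fold, 12 lay on chromosome 4, which held 618 of the 10991 windows tested. Higher windows were frequent there too: 5 of the 27 windows higher by at least 1.5-fold lay on chromosome 4, and of its 618 windows 193 (31.2%) were separated higher and 87 (14.1%) lower, against 19.5% and 15.4% over all windows.

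**Figure D4:**
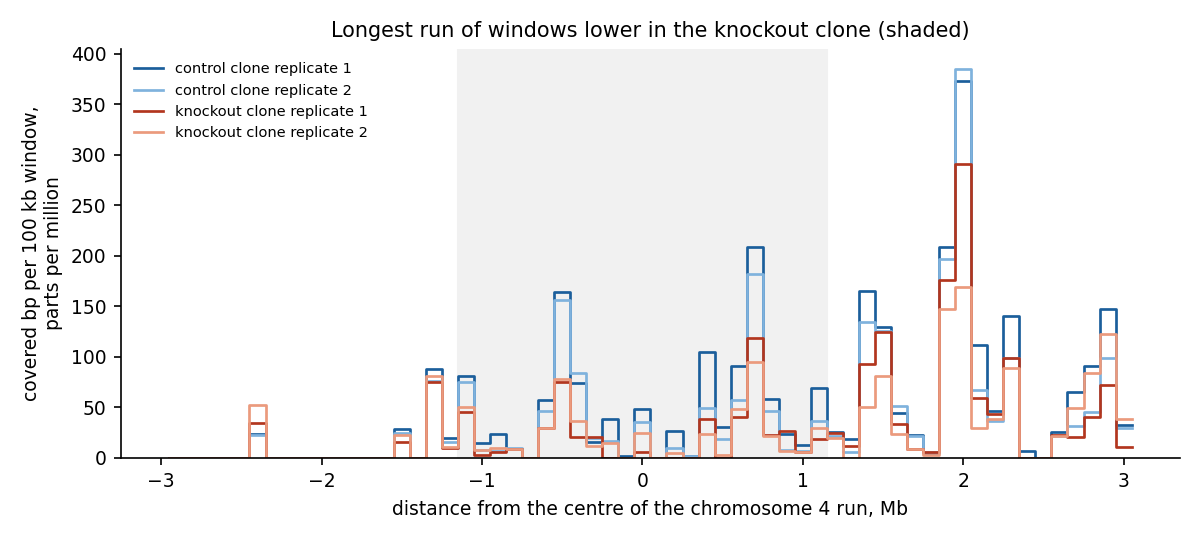
Lines give the share of each list's covered bp per 100 kb window, in ppm, against the distance in Mb from the centre of the longest run on chromosome 4, for each of the 4 libraries, with the run shaded. Summed over the shaded windows that were tested, the control libraries had 1155 and 874.1 ppm and the knockout libraries 485.0 and 511.5 ppm.

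The named higher runs had smaller differences, with a median log2 difference over their windows of 0.40 and 0.36, against -0.90, -0.67 and -0.51 in the lower runs named on chromosome 4 and -0.78 in the one on chromosome 16. On chromosome 2, 9 windows from 238000001 to 239000000, over genes that include PER2, a clock gene, and TWIST2, had 489.2 and 544.3 ppm in the control replicates and 765.2 and 678.7 ppm in the knockout replicates. On chromosome 4, 7 windows from 74000001 to 74800000 held the chemokine genes CXCL3 and CXCL2 and the EGF receptor ligand genes EPGN, EREG, AREG and BTC. They had 1287 and 1174 ppm against 1623 and 1633 ppm. A run of 7 lower windows on chromosome 16, from 86600001 to 87300000, overlapped no protein-coding gene and had 658.3 and 683.4 ppm in the control replicates against 448.2 and 379.6 ppm in the knockout replicates.

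Other single windows stood apart without a run. In chr4:106400001-106500000, which holds no protein-coding gene, the control replicates had 50.0 and 54.7 ppm with 10 peaks each and the knockout replicates 6.17 and 7.89 ppm with 1 and 2 peaks. In chr4:168500001-168600000, within PALLD, which encodes the actin-associated protein palladin, cover was 42.5 and 63.5 ppm against 8.69 and 7.77 ppm. In chr15:57800001-57900000, again without a protein-coding gene, it was 50.9 and 33.2 ppm against 0 and 5.81 ppm. These lower windows were under 20 ppm in both knockout libraries and entered the tests through their control values. On the higher side, chr4:154700001-154800000, with the retinol esterification gene LRAT, had 27.1 and 13.6 ppm against 70.1 and 56.3 ppm, and chr21:42200001-42300000, with the cholesterol exporter gene ABCG1, had 20.7 and 12.3 ppm against 57.9 and 43.5 ppm.

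Chromosome shares set these regions against the whole. Both knockout libraries lay below both control libraries on 4 of 23 chromosomes (17.4%), namely 11, 12, 14 and 15, and above on none. The mixed pairings separated 5 and 14 chromosomes. Chromosome 11 had the widest difference of the 4, with 4.851% and 4.830% of covered bp in the control replicates and 4.456% and 4.757% in the knockout replicates. limma called 0 chromosomes for the clones, with 0 at an unadjusted p under 0.05 and a lowest adjusted p of 0.92. In the pairing of control 2 with knockout 1 it called 3, chromosomes 4, 10 and 19. Chromosome 19 had 2.522% and 2.584% in control replicate 1 and knockout replicate 2, and 2.881% and 2.967% in control replicate 2 and knockout replicate 1 (limma adjusted p = 0.0013). For chromosome 4, which held most of the runs named, the shares were 5.486% and 4.955% in the control replicates and 5.212% and 5.679% in the knockout replicates.

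**Figure D5:**
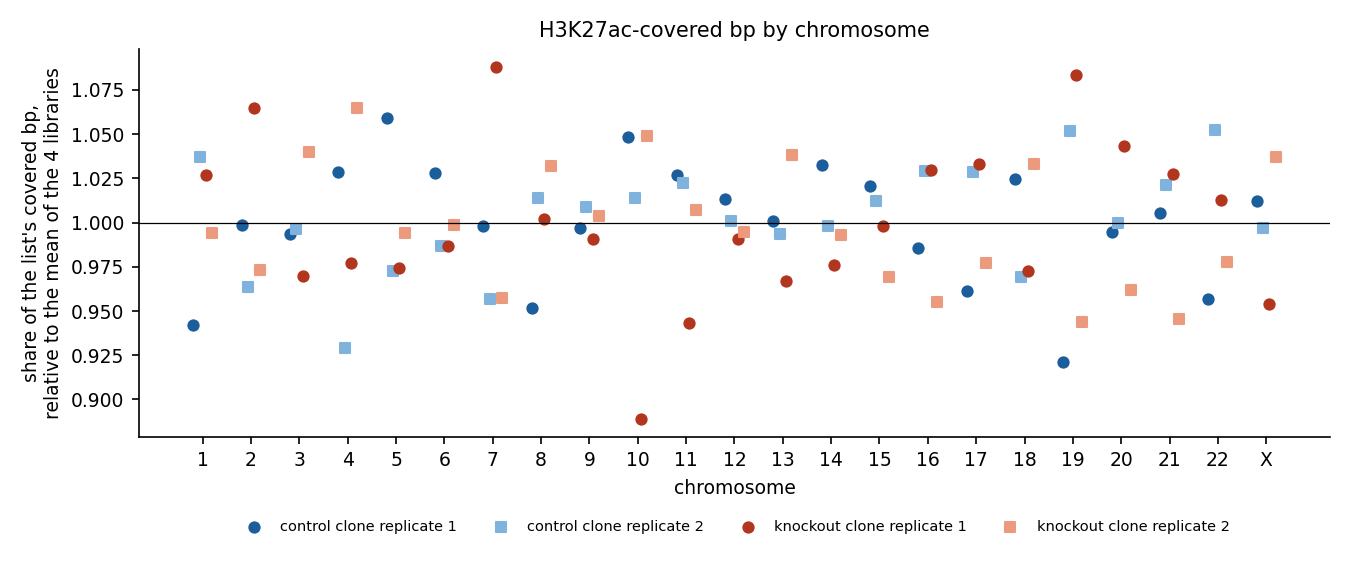
Points give each chromosome's share of the list's covered bp divided by the mean share of the 4 libraries, 1 point for each library. Control replicate 1 lies near knockout replicate 2, and control replicate 2 near knockout replicate 1, on chromosome 19 (2.522% and 2.584% against 2.881% and 2.967%).

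Gene lists for the secretory pathway came next, since the title names ER homeostasis. limma called 0 genes in every list, with 0 to 2 members a list at an unadjusted p under 0.05, and each list is given by its separated genes and its median log2 difference, beside 22% higher, 11.1% lower and a median of 0.044 over all genes tested. In the mixed pairing of control 2 with knockout 1, 31.8% of all genes were higher and 11.1% lower. Replicates 2 against 1 gave 12.2% and 11.9%. Unscaled, for the clones, 10.2% of all genes were higher and 26.6% lower. Of 27 tested ER chaperones and folding enzymes, 8 were higher and 0 lower (median 0.094). HSPA5, the ER chaperone BiP, had 32.1 and 26.6 ppm in the control replicates and 43.0 and 36.9 ppm in the knockout replicates. DNAJB9, its cochaperone, had 27.4 and 31.0 ppm against 41.4 and 35.1 ppm. In the mixed pairing of control 2 with knockout 1, 8 of the 27 were higher and 4 lower, and replicates 2 against 1 gave 3 and 4.

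Of 20 regulators of the unfolded protein response, 6 were higher and 1 lower (median 0.12). NFE2L1, a transcription factor anchored in the ER membrane, had 38.3 and 36.6 ppm against 64.7 and 53.6 ppm. CREB3L1, another transcription factor released from the ER membrane by cleavage, was the lower one, with 72.6 and 75.4 ppm in the control replicates and 62.4 and 28.4 ppm in the knockout replicates, and 1674 and 1503 bp against 788 and 714 bp at its start. ER-associated degradation had 5 higher and 1 lower of 16 (median 0.053), led by the ubiquitin-conjugating enzyme gene UBE2J2 with 23.2 and 20.8 ppm against 41.8 and 38.6 ppm. ER translocation had 6 higher and 2 lower of 21 (median -0.0013), N-glycosylation 9 higher and 1 lower of 25 (median 0.11), and ER-to-Golgi transport 9 higher and 2 lower of 30 (median 0.064). These balances depended on the scaling. Unscaled, the balance of all genes tested turned over, with 10.2% higher and 26.6% lower. ER chaperones then had 4 higher and 3 lower, unfolded protein response regulators 3 and 3, and ER-to-Golgi transport 5 and 4. ER-associated degradation had 3 and 4 (18.8% and 25%), ER translocation 1 and 8 (4.76% and 38.1%), and N-glycosylation 2 and 4 (8% and 16%). Centred on the median gene, 17.3% of all genes were higher and 16.6% lower. ER chaperones then had 6 higher and 1 lower, unfolded protein response regulators 4 and 1, and ER-associated degradation 6 and 4. ER translocation had 4 and 4, N-glycosylation 7 and 2, and ER-to-Golgi transport 6 and 2. In the mixed pairing of control 2 with knockout 1, N-glycosylation had 4 higher and 4 lower and ER-associated degradation 5 and 1. Unfolded protein response regulators had 7 and 2 there, ER translocation 5 and 2, and ER-to-Golgi transport 7 and 5. Replicates 2 against 1 gave 0 higher and 4 lower regulators of the unfolded protein response and 1 and 3 for ER-associated degradation. That pairing gave 3 and 3 for ER translocation, 4 and 3 for N-glycosylation and 4 and 3 for ER-to-Golgi transport. SEC61B of the translocation list and ALG2 of the N-glycosylation list, both on chromosome 9, had the same shares, so these lists are not independent.

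Of the programs of the carcinoma itself, the classical list had 5 higher and 0 lower of 15 (median 0.20), with CEACAM5, CEACAM6 and TSPAN8 furthest apart, and the basal-like list 3 higher and 2 lower of 16 (median 0.051). TSPAN8, a tetraspanin gene, had 101 and 102 ppm in the control replicates and 163 and 121 ppm in the knockout replicates. Mucins and large epithelial glycoproteins had 5 higher and 1 lower of 23 (median 0.11), and CEACAM5 and CEACAM6 count in this list as well. In the mixed pairing of control 2 with knockout 1, 13 of these 23 were higher and 0 lower. Epithelial and pancreatic transcription factors had 9 higher and 1 lower of 25 (median 0.081), and mesenchymal genes 3 higher and 2 lower of 12 (median -0.0085). Unscaled, where 10.2% of all genes were higher and 26.6% lower, the transcription factors had 1 higher and 8 lower (4% and 32%). The basal-like list had 1 and 5 (6.25% and 31.2%) and mesenchymal genes 1 and 4 (8.33% and 33.3%). The classical list had 3 and 3 and the mucins 3 and 2. Centred on the median gene, the transcription factors had 5 and 4, the basal-like list 2 and 2 and mesenchymal genes 1 and 3. The classical list then had 5 and 1 and the mucins 7 and 1. Of the 25 transcription factors, 9 were higher and 3 lower in the mixed pairing of control 2 with knockout 1. That pairing gave 4 higher and 1 lower classical genes, 6 and 1 basal-like genes and 3 and 3 mesenchymal genes. Replicates 2 against 1 gave 1 higher and 4 lower classical genes, 1 and 3 basal-like genes and 0 and 1 mesenchymal genes. The mucins had 2 and 2 there and the transcription factors 2 and 1.

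Of 12 tested AP-1 and related factors, 0 were higher and 1, BATF, was lower in the knockout clone (median 0.019), or 0 and 5 unscaled, whereas 9 of the 12 were higher in control 2 and knockout 1 than in the other two libraries, and replicates 2 against 1 gave 1 higher and 1 lower. These counts were not tested against each other. FOSL1 had 198 and 215 ppm in the control replicates and 216 and 206 ppm in the knockout replicates, and FOSL2 had 191 and 201 ppm against 203 and 178 ppm. Ductal markers had 3 higher and 0 lower of 13 (median 0.044) for the clones and 0 and 2 unscaled. They had 8 higher and 2 lower in the pairing of control 2 with knockout 1, and 0 and 0 in replicates 2 against 1.

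HOX genes, the body-axis transcription factors that sit in clusters, had the highest share of higher genes among the 19 lists, 10 of 17 (58.8%) with 0 lower (median 0.17). HOXB5 had 139 and 140 ppm in the control replicates and 156 and 165 ppm in the knockout replicates, and HOXA7 had 54.0 and 54.2 ppm against 67.3 and 60.1 ppm. Neighbouring HOX genes share cover through the 10 kb flanks, so the members are not independent. The count was 8 higher and 0 lower when libraries were centred on the median gene and 3 higher and 1 lower when the bp were unscaled. In the mixed pairing of control 2 with knockout 1 it was 4 higher and 0 lower, and in replicates 2 against 1 it was 3 and 0. Cytosolic ribosomal protein genes had 16 higher and 0 lower of 45 (median 0.087). They had 17 higher and 2 lower in the mixed pairing of control 2 with knockout 1, and 7 and 3 in replicates 2 against 1. Unscaled, for the clones, 10 were higher and 8 lower. Myelin and oligodendrocyte genes had 3 higher and 1 lower of 8 (median 0.14), acinar markers 1 and 0 of 5 (median -0.15), endocrine markers 1 and 0 of 2 (median 0.018), and immune markers 1 and 2 of 6 (median 0.068). Unscaled, these 4 lists had 2 and 2, 0 and 2, 1 and 0, and 0 and 2.

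MYRF and FOS sites came from libraries other than the acetylation lists. MYRF had been mapped in unedited CFPAC1 and FOS, a subunit of AP-1, in the control clone. Neither factor's sites came from the knockout clone, and the part of that choice in the shares below was not tested. Of all genes tested, 13.7% had a MYRF peak found in both MYRF libraries within their extended span. The share was 9.72% among separated higher genes and 18.3% among separated lower genes. FOS peaks showed the same order, at 63.1% of all genes, 55.2% of higher and 73.6% of lower genes. The mixed pairing of control 2 with knockout 1 had that order for FOS too, at 60.9% of higher and 78.5% of lower genes. Of genes at least 1.5-fold apart for the clones, 16 of 19 higher (84.2%) and 20 of 23 lower (87%) had a FOS peak. A MYRF peak lay in 2 of those 19 (10.5%) and 4 of those 23 (17.4%). Separated lower genes were also longer, with a median span of 53.1 kb against 29.6 kb for higher and 33.0 kb for all genes tested, and the part of gene length in these shares was not tested.

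Windows, which have one length, had a MYRF peak in 17.6% of all, 14.5% of separated higher and 21.7% of separated lower ones. In the mixed pairing of control 2 with knockout 1, the shares were 21.5% in higher and 13.8% in lower windows, a gap of similar size in the opposite direction. For genes that pairing gave 15.6% in higher and 15% in lower genes, a smaller gap than the 9.72% and 18.3% of the clones, and neither difference was tested. Where libraries stood at least 1.5-fold apart, 4 of 27 higher windows (14.8%) and 7 of 61 lower windows (11.5%) had a MYRF peak. The median log2 difference was -0.0092 in windows with a MYRF peak and 0.026 in windows without one. For FOS the window shares were 79.9% of all, 75.1% of higher and 84.4% of lower windows, and 75.7% and 86.9% in the mixed pairing. Of windows at least 1.5-fold apart for the clones, 27 of 27 higher (100%) and 52 of 61 lower (85.2%) had a FOS peak.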

How the data were processed

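Per the labels' protocols, formaldehyde-fixed chromatin was precipitated with an antibody against H3K27ac, MYRF or FOS. The labels name a pair of sequencing instruments and do not assign libraries to them. Reads were handled with MACS2 2.1.0.20150731, SAMtools, Bowtie2 2.2.6 and Trimmomatic 0.38 on GRCh38, per the submitters' processing notes; the input used to call CFPAC1 peaks is not given in the sources used here. Per peak, the deposited lists give a summit fold enrichment (the authors' ratio to background), a -log10 p, a -log10 q and a score, of which the score and -log10 p were not used. The lowest -log10 q of the deposited lists was just over 1.3. Depth is unknown, and a weak library loses peaks, which covered length cannot tell from lost acetylation.

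Covered bp per gene span with 10 kb flanks, 100 kb window or chromosome were divided by the list's covered bp. Genes and windows with a mean of at least 20 ppm over the 4 libraries were tested with limma 3.58.1 (R 4.3.3, lmFit and eBayes with trend and robust) on log2(ppm + 10), with Benjamini-Hochberg adjustment over all features; chromosome shares had no pseudocount. The log2 differences are on that scale, which understates changes of low values. A call needed an adjusted p under 0.05 with pairs not overlapping. The script was tested on simulated data. Other steps used Python 3.11.15, numpy 2.4.6, pandas 2.3.3 and matplotlib 3.10.9.

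Named genes were MYRF, the 12 separated genes in each direction with the widest distance between nearest libraries (1 per cluster of overlapping spans), and up to 3 members of each of 19 gene lists. One item that this rule selects is withheld and not reported here. Named windows were the 5 widest in each direction, at most 1 per 1 Mb, and named runs the 5 longest of at least 5 windows; a run that adjoins the longest one, FOSL1, FOSL2 and some genes within windows were named after their values were seen. The comparison, lists and rules were chosen with earlier results of these data known. Chromosome Y and the HPAF2 samples were not analysed here.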

Additional observations from a re-analysis of the deposited data

How the results depend on the processing

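limma called 0 genes, 0 windows and 0 chromosomes under each alternative it was fitted to, including the replicate block (0 of each); it was not fitted to unscaled or median-centred values, for which only separated features were counted. Replicate numbers did not pair the libraries: deviations of same-numbered libraries had r = -0.231 over genes and -0.25 over windows. With the crossed pairing as the block, chosen after seeing the data, the calls were also 0, 0 and 0. The number of genes at least 1.5-fold apart, 42, was 140 with peaks of -log10 q at least 10, 158 with peak numbers, 80 with a pseudocount of 2 and 104 without a filter. The number of windows, 88, was 202, 236, 150 and 263 in the same order, and 17 with 1 Mb windows. Genes higher were 1332 with no flank and 1186 unscaled, and genes lower 3104 unscaled. Windows higher and lower were 399 and 375 at 1 Mb and 1036 and 3107 unscaled, and 2627 were lower without a filter. Fewer features or libraries change such counts by construction; otherwise the cause was not tested. Leaving out 1 library, where 3 libraries overlap less easily, gave 3810 to 5820 genes higher, 2325 to 3552 lower and 155 to 344 at 1.5-fold, 3648 to 4595 windows higher, 3185 to 3630 lower and 295 to 789 at 1.5-fold, and 5 to 7 chromosomes higher and 6 to 9 lower; each highest 1.5-fold count was without knockout replicate 2. Of 952 alternative log2 differences of the 71 named genes, 16 took the opposite sign, in 10 genes. MYRF was at -0.0125 by peak number, -0.0675 unscaled, -0.0054 centred and -0.303 to 0.378 with 1 library left out. With peaks of -log10 q at least 10, MBTPS1 was at -0.10, DERL1 at -0.25, GATA6 at -0.31, FOXA2 at -0.0665 and SNAI2 at -0.57. By peak number, DERL1 was at -0.36, SSR1 at -0.17, SEC23B at -0.0906 and BCAS1 at -0.0016. Unscaled, SNAI2 was at -0.028 and KRT7 at -0.0067. The lists hold no read counts, so the part of depth was not tested.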
